A study of Mus musculus with 4 samples.

Results

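The insulin-like growth factor (IGF) axis was measured in sorted skin cells of mouse pups 24 h after induction of the microRNA miR-203. Its members here are 10 genes: the ligands Igf1 and Igf2, the receptors Igf1r and Igf2r, and the binding proteins Igfbp2, Igfbp3, Igfbp4, Igfbp5, Igfbp6 and Igfbp7. They were chosen by gene symbol, and every probe set annotated to exactly 1 gene with such a symbol was taken, which gave 28 probe sets for 10 of the 18193 genes named on the array. A probe set is a group of short oligonucleotides read together as 1 measure of a transcript. A further probe set, shared between Igf2r and another gene, was not used. All 10 members passed the filter on low values with at least 1 probe set, and 23 of their 28 probe sets passed.

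The induced pups carried K14-rtTA, TRE-miR-203 and K14-H2BGFP, that is the doxycycline-dependent activator under a keratin 14 promoter, a miR-203 transgene that answers to it, and a nuclear green fluorescent protein under the same keratin promoter. The control littermates, labelled WT, carried TRE-miR-203 and K14-H2BGFP without the activator. Doxycycline is described for the harvest as a whole, and cells were taken from skin at postnatal day 4, on the FVB background, by a sort whose gate the sources used here do not give. Since only the induced pups carried the activator, an effect of the activator and one of miR-203 cannot be told apart. Keratin 14 drives transgenes in basal epidermal and outer root sheath cells. There were 2 control and 2 induced arrays, each labelled a biological replicate, and so few arrays limit the precision of all values below. The comparison asks what miR-203 induction does to transcript levels after 24 h, here for ligands, receptors and binding proteins of 1 growth factor system.

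IGF-I and IGF-II act as secreted survival and growth signals, mostly through the receptor tyrosine kinase encoded by Igf1r. The receptor encoded by Igf2r, which also carries mannose-6-phosphate-tagged enzymes to lysosomes, takes up IGF-II and clears it. The binding proteins hold IGFs outside the cell and can withhold or deliver them. In skin, dermal cells are known as a main source of IGF-I, keratinocytes carry the receptor, and IGF signals support epidermal growth and hair growth. Igf2 is an imprinted gene of fetal and early postnatal growth.

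The induced microRNA is shown first because it is the only designed difference besides its activator. Its main mature strand lies at chr12:112130927-112130948 on the plus strand of GRCm38.p6, per RefSeq, and the capitals mark the seed, bases 2 to 8, through which a microRNA pairs with its targets.
mmu-miR-203-3p: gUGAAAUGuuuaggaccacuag
Whether transcripts of the members hold matches to this seed was not analysed here.

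The members did not move as a block. In limma's moderated test over all 27022 probe sets kept, 0 of the 10 members had an adjusted p under 0.05, against 0% of the 13489 genes tested, and 0 did so when limma's trend and robust options were used, which called 81 (0.60%) of all genes. At an unadjusted p under 0.05 there were 3 members (30%), Igf2 and Igfbp3 with lower and Igf2r with higher means in the induced arrays, where 9.62% of all genes lay under that level. Both induced arrays lay on one side of both controls for 5 of the 10 members (50%), against 39.4% of all genes. Of these, 2 were higher (Igf2r and Igfbp5), where 20.1% of all genes were, and 3 were lower (Igf2, Igfbp3 and Igfbp7), where 19.3% of all genes were. With 10 genes these shares say little about the axis as a whole. The median difference of the members was -0.06 on the log2 scale, beside -0.00 over all genes. Each gene is represented below by its brightest kept probe set unless another is named, and a difference is the induced mean minus the control mean on the log2 scale, given with the fit's standard error (SE) and n = 2 and 2.

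**Figure D1:**
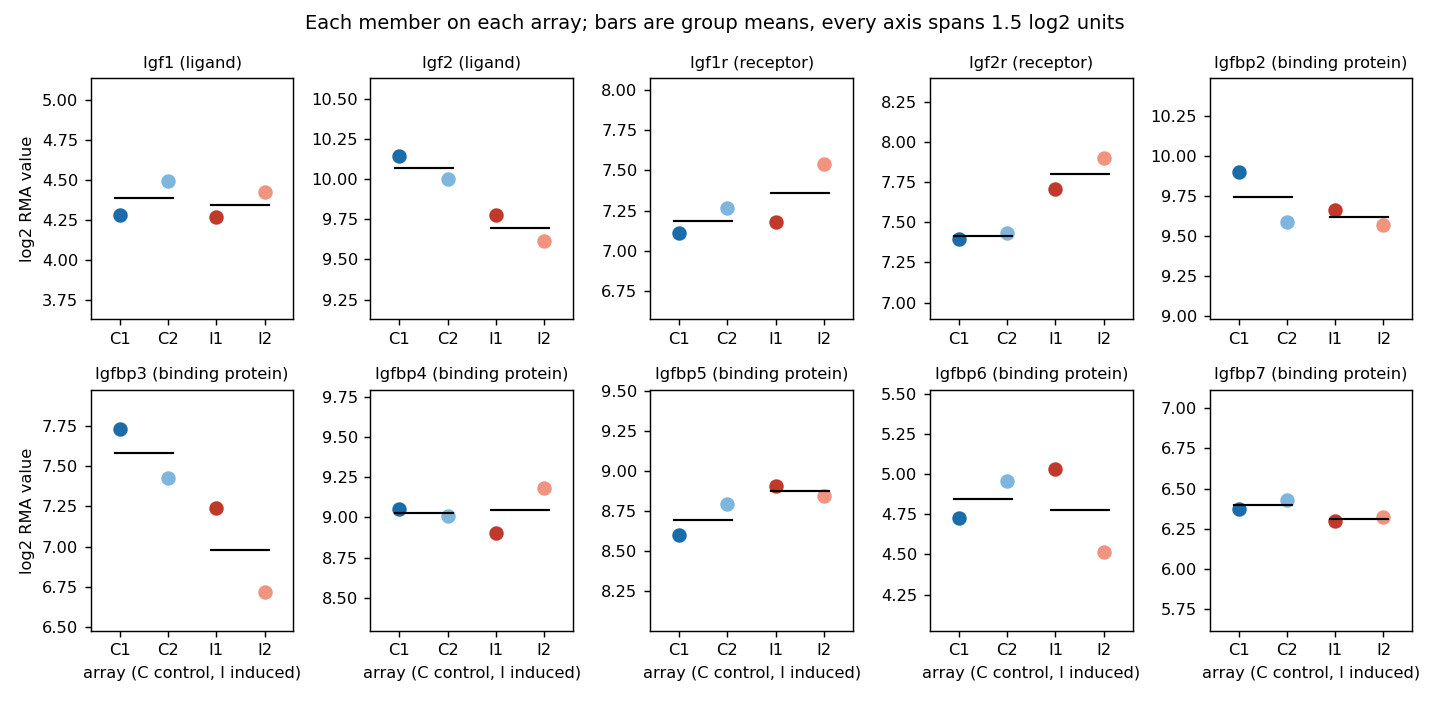
Log2 RMA value (y axis) of each member's brightest probe set on each of the 4 arrays (x axis; C1 and C2 control, I1 and I2 induced), with black bars at the group means and the same axis span of 1.5 log2 units in every panel. Igf2 and Igfbp3 sit lower and Igf2r higher in both induced arrays, Igfbp5 and Igfbp7 are separated by narrow gaps, and the groups overlap for the other 5 members.

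Induced replicate 1 stood apart in transcripts of the sex chromosomes, which bears on any value that rests on it. Y-linked Eif2s3y read 9.38 (log2) there and 2.52 to 2.82 on the other 3 arrays, and Xist, the RNA of the inactive X chromosome, had 5.86 against 10.6 to 11.2. Array medians ran from 4.74 to 4.79, and Pearson's r across the kept probe sets was 0.994 to 0.995 within groups and 0.991 to 0.993 between them. All 8 basal and all 7 suprabasal keratinocyte markers passed the filter, and so did all 8 immune and all 8 melanocyte markers. Means over the 4 arrays ran from 4.82 (Lyz2) to 10.96 (H2-Aa) for immune and from 5.81 (Kit) to 10.93 (Dct) for melanocyte markers. Of the 14 dermal fibroblast markers on the array, Col1a1, Lum, Pdgfra and Dpt lay below the filter level of 4.17, as did 6 of 10 endothelial markers, Pecam1 and Cdh5 among them.

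Of the ligands, Igf2 was the one with a clear signal. Its log2 values were 10.14 and 9.9999 in control arrays and 9.77 and 9.61 in induced arrays. Both induced values lay below both controls, with a gap of 0.23 between the groups. The difference was -0.38 ± 0.11 (SE), which is 1.30-fold lower (unadjusted p = 0.016, limma adjusted p = 0.369), and ranked 557 by absolute test statistic among the 13489 genes. The other Igf2 probe set lay below the filter level, at 3.89 and 3.84 in control arrays and 3.61 and 3.37 in induced arrays, in the same order but untested. Without each array in turn the difference ran from -0.46 to -0.30. In such bulk samples fewer cells of a type and less RNA per cell cannot be told apart.

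Igf1 was near the limit of measurement. Its only kept probe set had log2 values of 4.28 and 4.50 in control arrays and 4.27 and 4.42 in induced arrays, so that the groups overlapped. The difference was -0.04 ± 0.12, with a 95% interval from -0.34 to 0.26 (limma adjusted p = 0.962). The other 3 probe sets of Igf1 lay between 2.88 and 3.6 on every array, below the filter level. No change in Igf1 was detectable at this signal.

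The receptors differed in how clearly they separated. Igf2r, the IGF-II clearing receptor, had log2 values of 7.40 and 7.43 in control arrays and 7.71 and 7.90 in induced arrays. Both induced arrays were higher, and the controls agreed within 0.04. The difference was 0.39 ± 0.11, or 1.31-fold higher (unadjusted p = 0.012, limma adjusted p = 0.348), with rank 461 of 13489. Its other probe set read 6.80 and 7.05 in control arrays and 7.05 and 7.24 in induced arrays. That set had the same direction (0.22 ± 0.13, limma adjusted p = 0.639), but its groups were only 0.01 apart. The mean of both sets gave a difference of 0.31.

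Igf1r, the signalling receptor, had 5 kept probe sets. In its brighter sets the induced arrays differed by 0.36, 0.43 and 0.91, beside a median of 0.11 over all genes. In the dimmer ones they differed by 0.06, where the groups separated, and by 0.12. The brightest set of Igf1r read 7.11 and 7.26 in control arrays and 7.18 and 7.54 in induced arrays, with a difference of 0.17 ± 0.15 (95% interval -0.19 to 0.54, limma adjusted p = 0.779). Over the 5 sets the differences ran from -0.08 to 0.17, 4 of them above 0, and the groups overlapped in 4 sets. The set with the widest spread read 6.07 and 5.89 in the controls, 5.57 in induced replicate 1 and 6.48 in induced replicate 2. That gap of 0.91 between the induced arrays was matched or passed by 0.307% of the kept probe sets. Induced replicate 1 was below induced replicate 2 in all 5 sets of Igf1r, where 51.9% of all kept probe sets had that order, and without induced replicate 2 the difference of the brightest set was -0.01. The sets of 1 gene share its transcripts and are not replicates.

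**Figure D2:**
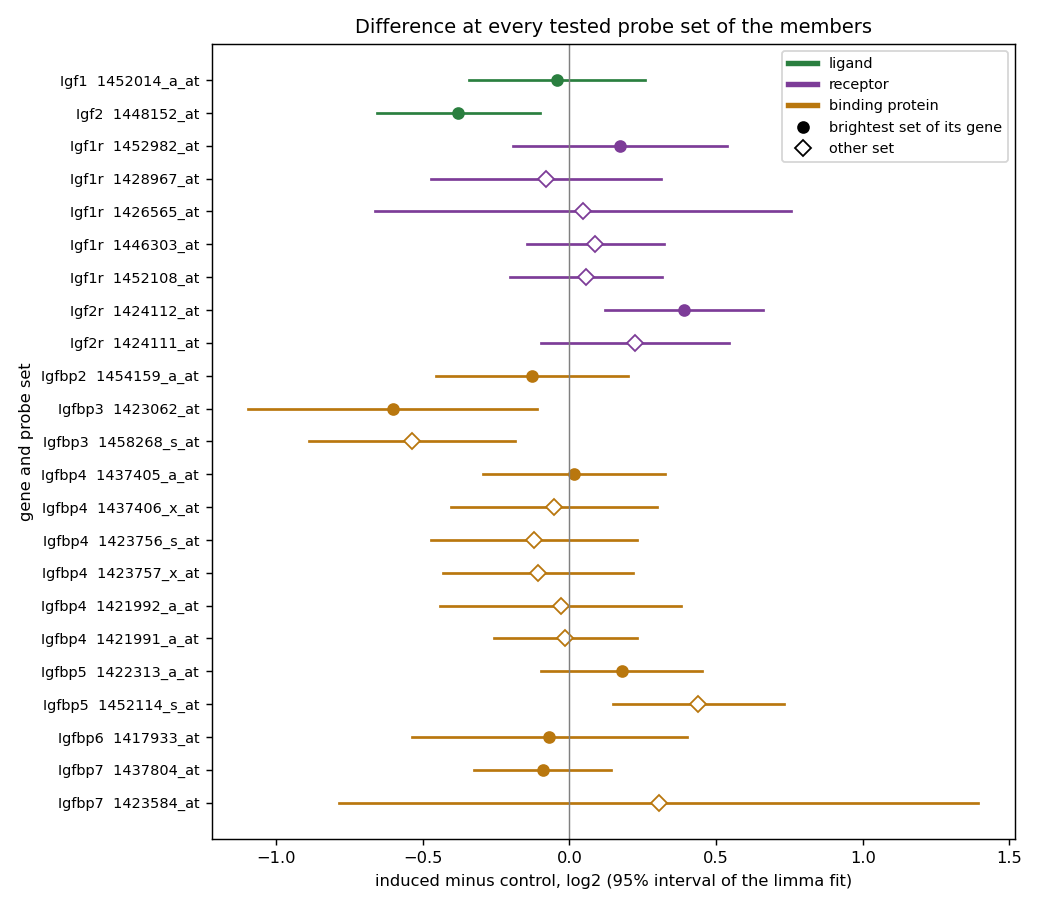
Difference between induced and control means on the log2 scale (x axis, with the 95% interval of the limma fit) for each of the 23 tested probe sets (y axis), coloured by role; filled circles are the brightest set of a gene and open diamonds its other sets. Both sets of Igfbp3 lie below 0 and both of Igf2r and Igfbp5 above it, while the 6 sets of Igfbp4 lie close to 0 and the 2 tested sets of Igfbp7 on opposite sides of it.

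Among the binding proteins Igfbp3 had the largest difference of any member, and both of its probe sets showed it. Igfbp3 encodes the main IGF carrier of the circulation, and in the epidermis it is known as a product of dividing basal keratinocytes. Its brightest set had log2 values of 7.73 and 7.43 in control arrays and 7.24 and 6.72 in induced arrays. Both induced arrays were below both controls, and induced replicate 2 was the lowest. The difference was -0.60 ± 0.20, which is 1.52-fold lower with a 95% interval from 1.08-fold to 2.14-fold (unadjusted p = 0.025, limma adjusted p = 0.412), and it ranked 754 of 13489. The second set read 6.79 and 6.82 in control arrays and 6.45 and 6.09 in induced arrays, with tighter controls and a gap of 0.34 between the groups. There the difference was -0.54 ± 0.14 (unadjusted p = 0.010, limma adjusted p = 0.326). Induced replicate 2 contributed most of the size: without it the difference of the brightest set was -0.34, and without induced replicate 1 it was -0.86.

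Igfbp5, a binding protein known from the hair follicle and the dermis, had higher values in the induced arrays in both of its probe sets, by different amounts. The brightest set read 8.60 and 8.80 in control arrays and 8.91 and 8.84 in induced arrays, a difference of 0.18 ± 0.11 (limma adjusted p = 0.671). The groups were 0.05 apart there and overlapped when the arrays were quantile normalized again. The dimmer set read 6.80 and 7.04 in control arrays and 7.33 and 7.39 in induced arrays, 0.29 apart. Its difference was 0.44 ± 0.12 (unadjusted p = 0.011, limma adjusted p = 0.330), and the mean of both sets gave 0.31. The sets agree in direction and not in size. Without control replicate 1 the difference of the brightest set was 0.08.

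Igfbp4, a widely made inhibitory binding protein, had the most probe sets and no detected shift between the groups. Its brightest set read 9.05 and 9.01 in control arrays and 8.90 and 9.19 in induced arrays (difference 0.01 ± 0.13, 95% interval -0.30 to 0.33, limma adjusted p = 0.989). The 6 sets gave differences from -0.12 to 0.01, 5 of them below 0, and the sign of the brightest set turned to -0.00 when the arrays were quantile normalized again. The groups overlapped in all 6 sets. Induced replicate 1 was the lowest and induced replicate 2 the highest of the 4 arrays in 5 of the 6 sets, an order that 7.46% of all kept probe sets had. The 6 sets share transcripts, and some may share probes.

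Igfbp7, a secreted protein related to the IGF binding proteins and abundant in vessel walls, gave different answers from its 2 tested probe sets. The brightest read 6.37 and 6.43 in control arrays and 6.30 and 6.32 in induced arrays, a difference of -0.09 ± 0.09 with groups 0.05 apart (limma adjusted p = 0.832). The other read 5.77 and 5.80 in the controls, 5.36 in induced replicate 1 and 6.83 in induced replicate 2. Those induced arrays differed by 1.47, a gap matched or passed by 18 of the 27022 kept probe sets (0.0666%), and the difference was 0.30 ± 0.44 (95% interval -0.78 to 1.39, limma adjusted p = 0.896). The direction of Igfbp7 is therefore not settled, since the mean of both sets was 0.11. The third set lay below the filter level, between 2.91 and 3.43.

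Igfbp2 and Igfbp6 did not separate the groups. Igfbp2, a binding protein known from fetal and epithelial tissue, read 9.90 and 9.59 in control arrays and 9.66 and 9.57 in induced arrays (difference -0.13 ± 0.13, limma adjusted p = 0.831). Control replicate 1 was the highest of the 4 arrays, and without it the difference was 0.03. Igfbp6, which prefers IGF-II, read 4.73 and 4.96 in control arrays and 5.03 and 4.52 in induced arrays (difference -0.07 ± 0.19, limma adjusted p = 0.960). The controls of Igfbp6 lay between its induced arrays, whose gap of -0.52 was matched or passed in size by 2.78% of all genes.

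**Figure D3:**
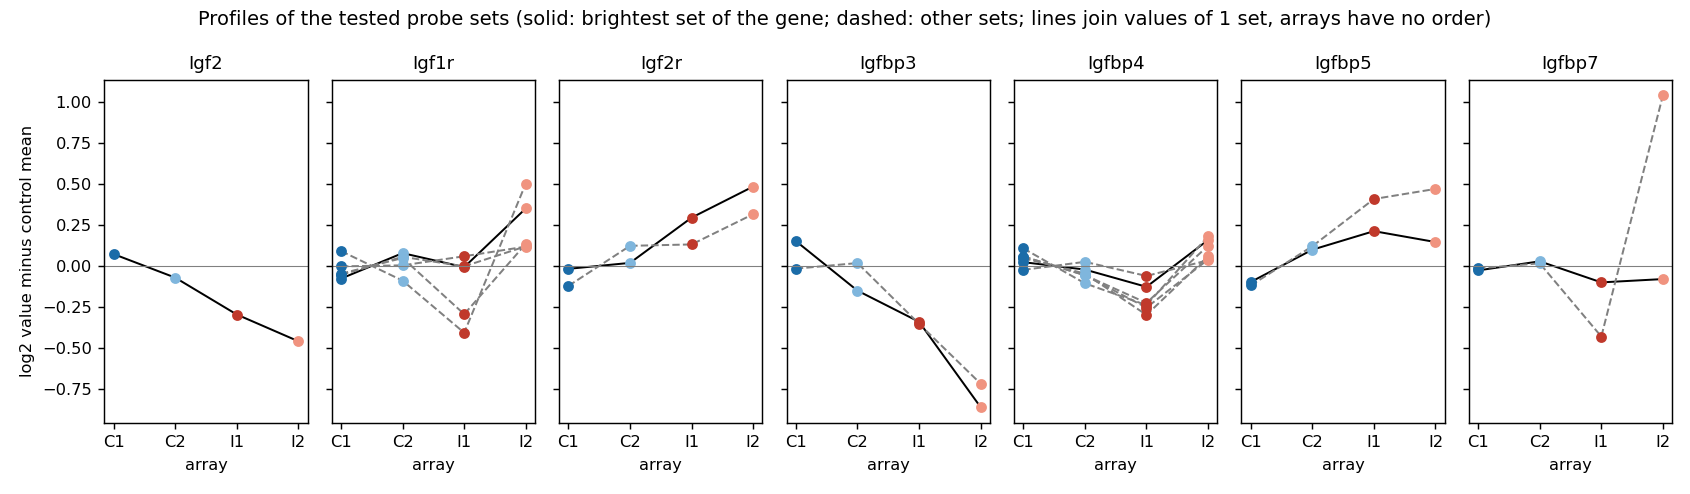
Log2 value minus the control mean (y axis) on the 4 arrays (x axis) for every tested probe set of 7 members, with solid lines for the brightest set and dashed lines for the others; a line joins the values of 1 set and the arrays have no order. Igf2 and Igfbp3 lie below 0 and Igf2r and Igfbp5 above 0 in both induced arrays, whereas Igf1r, Igfbp4 and the second set of Igfbp7 have induced replicate 2 (I2) above induced replicate 1 (I1).

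Some marker lists had the array order of some members, and for the fibroblast list that order depended on the measure. Summed over the 14 dermal fibroblast markers, the linear signal was 3424 and 3584 in control arrays and 3142 and 2705 in induced arrays, lowest in induced replicate 2, the array lowest for Igf2 and Igfbp3. Most of that sum was Postn, the periostin gene, singled out after its values were seen, at log2 values of 11.4 and 11.4 in control arrays and 11.3 and 10.8 in induced arrays. Without Postn the sum was 793 and 797 in the controls, 638 in induced replicate 1 and 941 in induced replicate 2, the order seen in Igfbp4 and in the second set of Igfbp7. The mean log2 value of the 14 markers had that order too, at 5.44 and 5.54 in control arrays and 5.34 and 5.56 in induced arrays. Of the 10 fibroblast markers kept, 6 had a higher and 4 a lower mean in the induced arrays. In each direction 1 separated, beside 20.1% of all genes higher and 19.3% lower. Col6a3 had the largest statistic (0.41 ± 0.17). The part of these markers in the results was not tested.

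Basal keratinocyte markers had a summed signal of 43108 and 43436 in control arrays and 38366 and 37204 in induced arrays. Of the 8, 7 had lower means and all 7 of those separated, with Col17a1, a hemidesmosomal collagen, at -0.71 ± 0.11. Among all genes 19.3% separated lower. Of the 7 suprabasal keratinocyte markers, 4 also separated lower and 3 had higher means, with a median difference of -0.03. The basal values go the same way as Igf2 and Igfbp3. Hair follicle markers had sums of 14233 and 17705 in control arrays and 24943 and 28924 in induced arrays. Of the 12, 11 had higher means and 9 separated, among them the hair transcription factor Foxn1 (0.79 ± 0.11). Among all genes 20.1% separated higher. The hair follicle values go the same way as Igf2r and Igfbp5. Other lists, given below, share either direction. The lists were chosen with earlier results of these data known, so these shares are no test of the lists. Whether any of these lists has a part in the members' differences was not tested.

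For the remaining lists, the order of the arrays is the point that touches the members. Pericyte and smooth muscle markers (3 of 8 below the filter level) had mean log2 values of 4.79 and 4.86 in the controls, 4.70 in induced replicate 1 and 4.92 in induced replicate 2, the order of Igfbp4. Melanocyte markers had 8.36 and 8.35 against 8.27 and 8.79, and adipocyte markers 6.37 and 6.46 against 6.31 and 6.63, in the same sequence. Dermal papilla markers (5 of 8 below the filter level) had 3.86 and 3.87 against 3.84 and 4.12. Their mean had that order too, but lay below the filter level on every array. Among kept genes the order held for 2 of 5 pericyte and smooth muscle and 4 of 8 melanocyte markers. It held for 1 of 3 adipocyte and 1 of 3 dermal papilla markers, beside 7.53% of all genes. That full order was therefore not the order of most kept genes in any of these lists. Induced replicate 1 was below induced replicate 2, as in all sets of Igf1r, in 5 of 5 pericyte and smooth muscle and 8 of 8 melanocyte markers. The same held for 2 of 3 adipocyte and 2 of 3 dermal papilla markers, beside 53.3% of all genes. Endothelial markers, at 4.15 and 4.28 against 4.11 and 4.08, did not have the order of Igfbp4. They were lower in both induced arrays, as Igf2 and Igfbp3 were, but close to the filter level. Suprabasal keratinocytes (13.568 and 13.573 against 13.561 and 13.500) were also lower in both. Red blood cells (4.32 and 4.44 against 4.74 and 4.61) were higher in both, as Igf2r and Igfbp5 were, with 2 markers kept. Immune cells (8.08 and 7.86 against 8.10 and 7.74) and skeletal muscle (4.427 and 4.422 against 4.430 and 4.354) had the order of Igfbp6. There induced replicate 1 was highest and induced replicate 2 lowest. Whether these lists have a part in the members' values was not tested. The mean of a list runs over different probe sets, so its height is not comparable between lists.

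**Figure D4:**
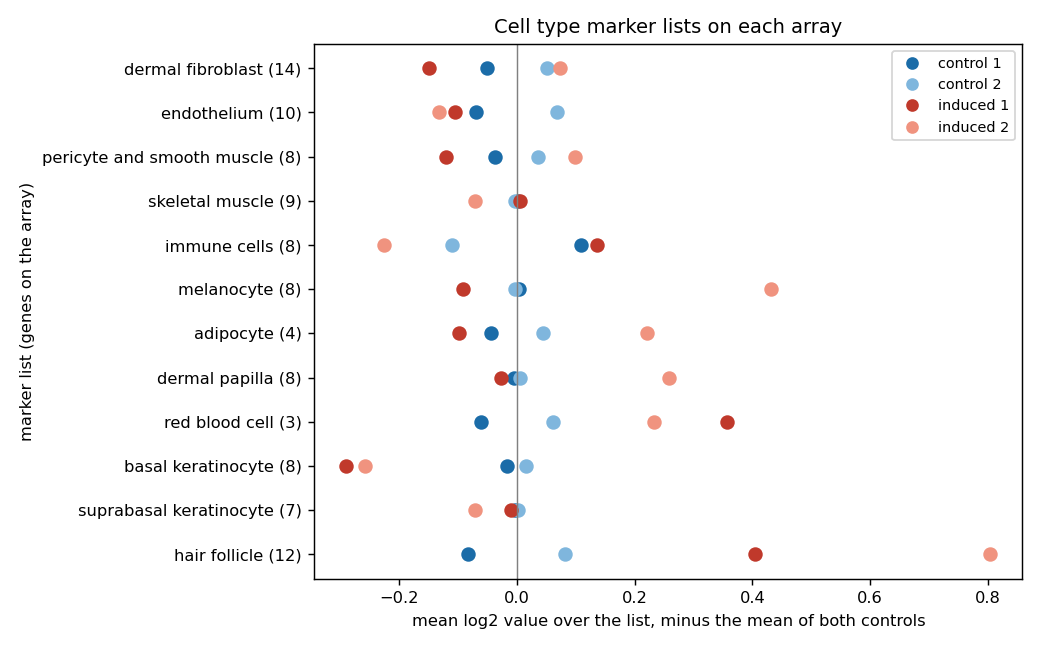
Mean log2 value over each marker list on each array, minus the mean of both controls (x axis), for 12 lists (y axis, with the number of genes on the array). Basal keratinocyte, suprabasal keratinocyte and endothelial markers lie lower in both induced arrays, and hair follicle and red blood cell markers higher. The fibroblast, pericyte, melanocyte, adipocyte and dermal papilla lists have induced replicate 1 lowest and induced replicate 2 highest.

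The rest of the pathway was read from a list of 50 genes chosen by role, of which 44 had a probe set of their own and 40 passed the filter. At adjusted p under 0.05, 0 of the 40 were called, and 2 (5%) had an unadjusted p under 0.05, both higher, beside 9.62% of all genes. The groups did not overlap for 16 of the 40 (40%), 11 higher and 5 lower, beside 39.4% of all genes, so that the list as a whole separated about as often as any other gene. Its median difference was 0.04, beside -0.00 over all genes. Means were higher after induction for 30 of the 40 genes (24 when the arrays were quantile normalized again), beside 6694 of the 13489 genes tested. The 30 include Stc2, whose group means were both 5.74315, a tie apart from rounding. With each array left out in turn the count ran from 25 to 30. The sizes were small, from -0.24 to 0.35.

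Between the receptors and the growth machinery, the genes with the largest statistics were mostly higher in the induced arrays. They were picked for those statistics, and the limma adjusted p was 0.373 or more for each. Tsc1, whose product restrains the mTOR kinase, read 5.80 and 5.66 in control arrays and 6.04 and 6.11 in induced arrays (0.35 ± 0.10, limma adjusted p = 0.373). Its other kept probe set had the opposite sign (-0.12), and the mean of both sets differed by 0.11. Pik3ca and Pik3cb, catalytic subunits of PI3-kinase, differed by 0.23 ± 0.11 and 0.21 ± 0.12, and all 4 other sets of Pik3ca had the same sign. Irs1, the adaptor that couples the IGF and insulin receptors to PI3-kinase, differed by 0.18 ± 0.12, and Foxo3, a transcription factor that Akt restrains, by 0.20 ± 0.12. The adaptor gene Grb2 differed by 0.22 ± 0.11, but its other kept probe set read -0.23. Pappa, a protease that cleaves IGF binding proteins, differed by 0.15 ± 0.11 at a signal close to the filter level. The receptor-binding inhibitor Grb10, which is imprinted as Igf2 is, differed by -0.15 ± 0.10.

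The RNA-binding proteins named after their binding of Igf2 messenger RNA had probe sets of either sign. Igf2bp3 read 8.38 and 8.35 in control arrays and 8.59 and 8.61 in induced arrays (0.24 ± 0.09, unadjusted p = 0.046, limma adjusted p = 0.485), with 1 of its 5 other sets at -0.05. Igf2bp1 read 5.98 and 6.18 in control arrays and 5.77 and 5.91 in induced arrays (-0.24 ± 0.12, limma adjusted p = 0.565), while all 3 of its other sets were above 0, at up to 0.15, and the mean of its sets differed by -0.01, so that its direction is not settled. The insulin receptor gene Insr differed by 0.03 ± 0.11 and the kinase genes Akt1, Akt2 and Mtor by 0.09 ± 0.12, 0.01 ± 0.10 and 0.07 ± 0.11, with overlapping groups in each. Those genes were picked for their place in the pathway and not for their values.

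**Figure D5:**
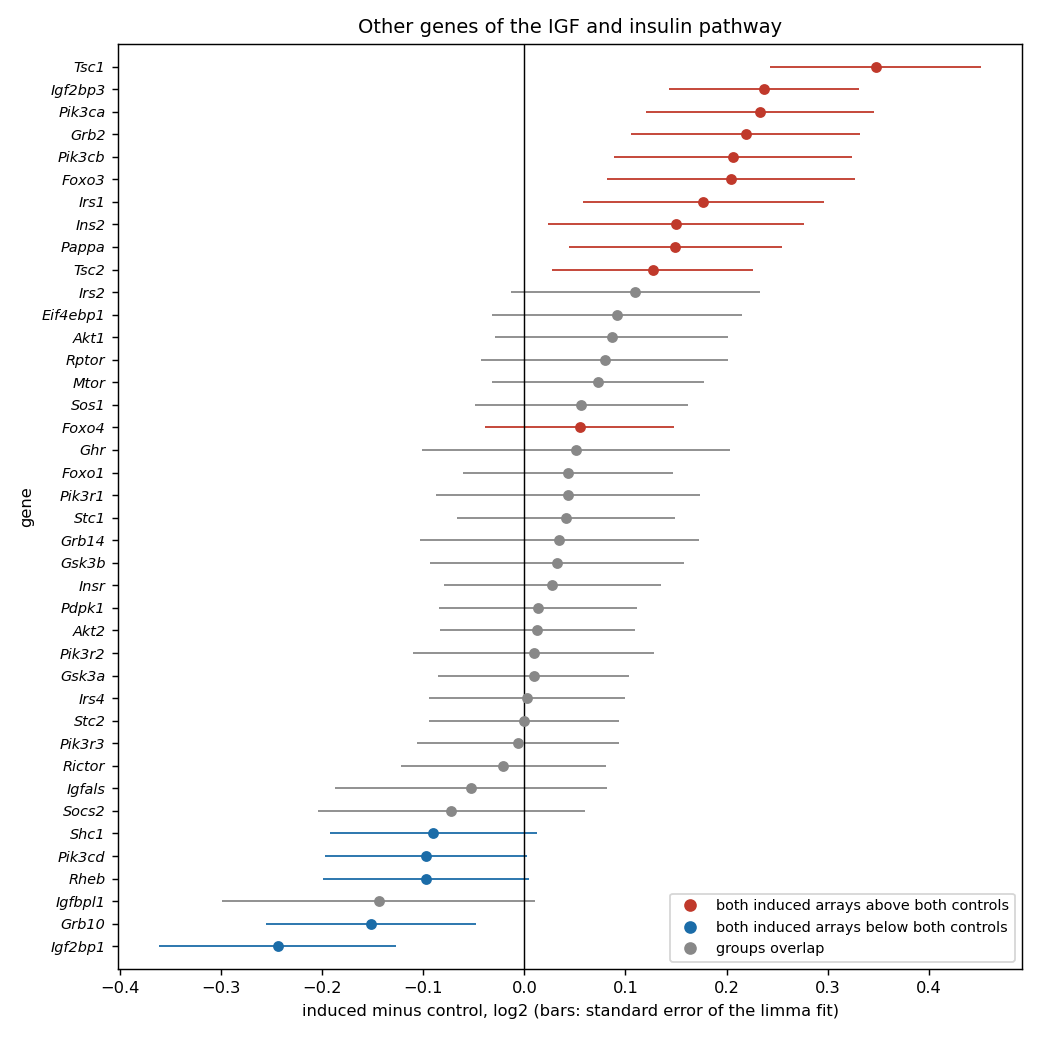
Difference between induced and control means on the log2 scale (x axis, bars are the standard error of the limma fit) for the 40 other pathway genes (y axis), coloured by whether both induced arrays lay above or below both controls. The differences run from -0.24 for Igf2bp1 to 0.35 for Tsc1, and 24 of the 40 genes have overlapping groups.

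Promoter sequence is shown for the 3 genes that separated in every kept probe set and have a single start in the RefSeq table of GRCm38.p6. Each run is the 100 bases just before the start, read 5′ to 3′ on the gene's own strand, and capitals mark TATAAA or TATATA (forms of the TATA box) and GGGCGG (the GC box), searched on both strands, where matches may overlap. All 3 genes lie on the minus strand, Igfbp3 at chr11:7213924-7214023, Igf2r at chr17:12769707-12769806 and Igfbp5 at chr1:72874866-72874965.
Igfbp3: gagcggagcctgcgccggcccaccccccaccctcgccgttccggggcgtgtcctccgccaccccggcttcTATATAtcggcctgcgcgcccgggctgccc
Igf2r: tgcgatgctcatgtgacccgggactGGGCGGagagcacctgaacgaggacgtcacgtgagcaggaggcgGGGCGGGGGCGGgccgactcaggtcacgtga
Igfbp5: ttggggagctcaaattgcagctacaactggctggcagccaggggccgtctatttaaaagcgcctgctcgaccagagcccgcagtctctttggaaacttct
The Igfbp3 window held TATATA from position -30 and no GC box. The Igf2r window held 3 GC boxes and no TATA form, and the Igfbp5 window held none of the 3 motifs. The windows were 77%, 69% and 55% G or C, with 13, 11 and 4 CG pairs. Among all 32851 promoter windows of this length, 7.03% held TATAAA or TATATA and 24.7% held GGGCGG. A match is a description of the letters, and these arrays carry no measure of binding. Igf2 has 4 starts in the table, and the array does not say which was in use, so none is printed.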

How the data were processed

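The deposited values are log2 RMA values of 45101 probe sets on 4 Affymetrix mouse arrays, made with RMA per the submitters' processing notes, which give no version. RMA corrects background, quantile normalizes between arrays and summarises each probe set, so these values cannot show a change in a cell's total RNA, and a dim probe set shows compressed differences. The sources used here give neither build nor chip definition, and 0 columns of other samples were present. After removal of 64 control probe sets, 34945 of 45037 carried a single gene in the platform annotation, 932 several and 9160 none; symbols were updated through RefSeq gene identifiers. The filter kept 27022 probe sets whose mean log2 value reached the 40th percentile (4.17), and each gene is shown by the brightest of its kept sets.

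Groups were compared with limma 3.58.1 (R 4.3.3), using lmFit with eBayes and two-sided p-values adjusted by Benjamini-Hochberg over the 27022 probe sets (threshold 0.05). There were 2 residual and 3.82 prior degrees of freedom, so the spread pooled over probe sets carries much of each p-value. An exact permutation test of 2 against 2 arrays cannot give a two-sided p below 0.333 and was not used. The test was checked on simulated data. The labels do not say what a replicate number shares between groups, so the fit had no block. The members and lists were chosen with earlier results of these data known. The named genes are all members with every probe set, the 10 other pathway genes with the largest absolute statistic, and up to 2 per marker list (here those the text turns on); Insr, Akt1, Akt2 and Mtor are added for their place in the pathway. Summed marker signals add the linear values of each gene's brightest probe set. The alternatives were other filters, normalizations, variance priors, thresholds and probe set rules, the replicate block and leaving out each array.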

Additional observations from a re-analysis of the deposited data

How the results depend on the processing

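In limma, 0 members and 0 other pathway genes had an adjusted p under 0.05 in any alternative run, or under 0.10 with all arrays. Over all genes 81 were called with trend and robust, 2 without induced replicate 2 and 0 in each of the other alternatives at that threshold. At an unadjusted p under 0.05 the counts were 3 members and 2 other pathway genes. The lowest adjusted p of a member in any setting was 0.184. Igf2, Igf2r, Igfbp3 and Igfbp5 kept their direction in all 11 alternatives, the first with differences of -0.46 to -0.30 over the arrays left out in turn, then 0.29 to 0.48 for Igf2r, -0.86 to -0.34 for Igfbp3 and 0.08 to 0.28 for Igfbp5. The other members changed sign: over arrays left out, Igf1 ran from -0.15 to 0.066, Igf1r from -0.0079 to 0.35, Igfbp2 from -0.28 to 0.026, Igfbp4 from -0.13 to 0.16 and Igfbp6 from -0.33 to 0.19, while Igfbp7 ran from -0.12 to -0.06. With the mean of all kept probe sets Igfbp7 was 0.11, Igfbp4 -0.051 and Grb2 -0.0058, the probe sets of each disagreeing in sign, and with a second quantile normalization Igfbp4 was -0.0034; the cause was not tested. With the 60th percentile filter Igf1 and Igfbp6 were not tested. Leaving out an array left 1 in its group, whose spread was then taken from the other group.

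With the replicate number as a block, 0 members, 0 other pathway genes and 0 of all genes were called. The deviations of same-numbered arrays correlated at -0.10, and the crossed pairing, added after the data were seen, also called 0 members and 0 other pathway genes. With 2 arrays a group and log2 signals near the filter level, changes in Igf1 and Igfbp6 could not be resolved.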
